A study of Caenorhabditis elegans with 2 samples.

Results

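The genes described here are sperm genes of the nematode Caenorhabditis elegans: the msp genes for the major sperm proteins, the spe (spermatogenesis) and fer (fertilization) genes, the sperm phosphatases gsp-3 and gsp-4, and the germ-line regulators fog-1 and fog-3. They were chosen by gene name in Ensembl's annotation of the genome, from protein-coding genes only. The choice gave 64 of 19973 nuclear protein-coding genes, namely 31 msp, 28 spe, 1 fer, 2 gsp and 2 fog genes. The gene spe-5, which encodes a subunit of the vacuolar proton pump, was left out of the 64.

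RNA polymerase II was mapped by ChIP-seq with an antibody against AMA-1, its large catalytic subunit. The animals were wild-type N2 at the last larval stage, L4, taken whole and of mixed sex, with age not known. There was 1 group of 2 biological replicates and no other strain, stage or treatment, so no comparison between conditions exists. Each replicate had a list of 30000 peaks, and pooling the replicates gave a further list of 30000. These 3 lists were deposited as peaks together with background, so their weak end holds sites that need not be bound. The IDR set, 2082 peaks, holds those kept by a filter on the irreproducible discovery rate. All were on build ce11. The summit, the highest base of a peak, was used as its position, and a gene was counted when a summit lay in it or up to 500 bp either side. Peaks were ranked by the authors' signal value within each list, rank 1 being strongest, and a rank percentile is the percent of the list ranked at or below a peak. In whole animals, fewer cells that use a gene and less polymerase per cell cannot be told apart. The number of reads behind each library is unknown here.

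In C. elegans hermaphrodites the germ line makes sperm late in larval life and then turns to oocytes, so L4 is the stage at which sperm are made. Major sperm protein has a double role: it builds the filaments on which the crawling sperm moves, and it is released as a signal that drives oocyte maturation and ovulation. The spe and fer genes act in the making, activation and function of sperm, while fog-1, a cytoplasmic polyadenylation element binding protein, and fog-3, of the Tob family, commit germ cells to the sperm fate.

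The msp genes are similar copies on chromosomes II and IV. All 31 had 1 exon and none had an annotated untranslated region, so their annotated start is the first base of the start codon. Of these genes 28 were 384 bp long, and over their 378 pairs the share of identical bases ran from 86.2% to 99.5%, with a median of 92.4%. No pair was identical. The first 60 bases of 5 genes are shown, 5′ to 3′, to make this likeness visible, with capitals where a base differs from msp-56. They are from RefSeq's assembly WBcel235, the build of the peak lists.
msp-56 (chrIV:9841540-9841599, + strand): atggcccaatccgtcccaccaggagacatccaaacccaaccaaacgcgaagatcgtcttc
msp-38 (chrIV:10143681-10143740, − strand): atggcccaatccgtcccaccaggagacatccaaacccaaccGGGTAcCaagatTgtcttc
msp-31 (chrII:4916503-4916562, − strand): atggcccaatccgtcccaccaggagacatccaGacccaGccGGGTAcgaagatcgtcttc
msp-57 (chrIV:5062578-5062637, + strand): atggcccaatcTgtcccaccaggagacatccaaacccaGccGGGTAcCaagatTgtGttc
msp-51 (chrIV:5295281-5295340, − strand): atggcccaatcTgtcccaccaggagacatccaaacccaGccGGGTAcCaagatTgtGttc
In this stretch msp-38 and msp-31 each differed from msp-56 at 7 bases, and msp-57 and msp-51 at 10. Over the whole gene the identity to msp-56 was 96.4% for msp-38, 92.4% for msp-57 and 91.9% for msp-31 and msp-51.

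Words in the sequence before the msp starts recurred at like distances. Promoters were taken as the 250 bases before and the first 50 bases of each gene. They were searched on both strands for 4 GATA words. The first was AGATAA. Changing its first letter gave TGATAA. Ending in G, the other two were AGATAG and its partner TGATAG. The word TATAA was searched in the same way, and matches may overlap. GATA words are the sites of GATA factors, a family that includes ELT-1, which is known to act on msp promoters in this species. The promoters of msp-56, msp-31 and msp-57 are shown as examples with and without a polymerase summit near the gene, with both kinds of match in capitals.
msp-56 (chrIV:9841290-9841589, + strand): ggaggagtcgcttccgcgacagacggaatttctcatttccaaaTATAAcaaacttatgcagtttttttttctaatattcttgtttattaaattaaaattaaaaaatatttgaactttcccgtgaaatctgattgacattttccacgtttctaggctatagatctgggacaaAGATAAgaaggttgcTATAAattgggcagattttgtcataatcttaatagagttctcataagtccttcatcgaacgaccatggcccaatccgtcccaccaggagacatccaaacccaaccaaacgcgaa
msp-31 (chrII:4916513-4916812, − strand): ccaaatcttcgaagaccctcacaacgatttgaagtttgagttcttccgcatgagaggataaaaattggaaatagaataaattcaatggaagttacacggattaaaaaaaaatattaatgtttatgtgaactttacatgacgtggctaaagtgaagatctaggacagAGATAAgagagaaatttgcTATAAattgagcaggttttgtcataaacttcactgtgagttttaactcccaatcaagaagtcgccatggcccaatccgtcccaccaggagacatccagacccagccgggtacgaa
msp-57 (chrIV:5062328-5062627, + strand): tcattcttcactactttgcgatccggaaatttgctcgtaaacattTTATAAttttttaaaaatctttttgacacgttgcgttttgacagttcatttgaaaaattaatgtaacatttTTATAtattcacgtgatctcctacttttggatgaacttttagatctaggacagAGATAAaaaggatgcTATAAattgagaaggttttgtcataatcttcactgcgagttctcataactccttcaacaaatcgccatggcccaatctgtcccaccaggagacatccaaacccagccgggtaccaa
In these 3 genes the nearest GATA word began 79, 84 and 81 bases before the start codon, in the order shown, and the nearest TATAA 64, 65 and 66 bases before it. A GATA word was found in 26 of 31 msp promoters (83.9%) and in 54.5% of all 19973 promoters, and TATAA in 27 of 31 (87.1%) and in 57.8%. Between 100 and 51 bases before the start, 25 of 31 msp genes (80.6%) had a GATA word and 24 (77.4%) had TATAA, against 14.7% and 14.3% of all genes. In the other 33 sperm genes a GATA word was found in 16 promoters (48.5%) and TATAA in 17 (51.5%), near the shares over all genes. A match is a description of the letters only, and promoters of gene copies are not independent examples.

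**Figure D1:**
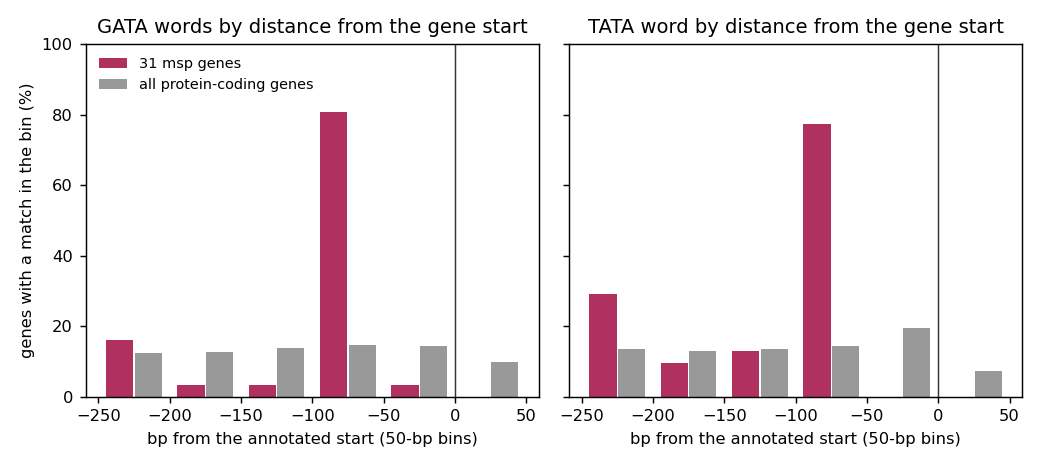
Percent of the 31 msp genes and of all 19973 protein-coding genes with a GATA word (left) or TATAA (right) in each 50-bp bin around the annotated start, both strands. In the bin from 100 to 51 bases before the start the msp genes reached 80.6% and 77.4%, and all genes 14.7% and 14.3%.

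Polymerase summits were few at sperm genes. In the pooled list 14 of 64 (21.9%) had a summit, against 43.3% of all protein-coding genes. Replicate 1 gave 13 of 64 (20.3%) beside 42.8% of all genes, and replicate 2 gave 14 (21.9%) beside 43.6%, a mean of 21.1% ± 1.1 (SD, n = 2). The IDR set gave 2 of 64 (3.12%) beside 10.3%. A summit in both replicates was found for 10 of 64 (15.6%, beside 35.1%), and in at least 1 replicate for 17 (26.6%, beside 51.3%). For 46 of 64 no list held a summit in the gene or its flanks (71.9%, against 48.6% of all genes).

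The msp genes had summits less often than the spe genes, of which 12 of 28 (42.9%) had a pooled summit. Of 31 msp genes, the pooled list had a summit at 1, replicate 1 at the same gene (msp-31), replicate 2 at that gene and msp-57, and the IDR set at none. Their median length was 384 bp, against 2027 bp for all protein-coding genes. Among all 3659 protein-coding genes of up to 1000 bp 31.9% had a pooled summit. Of the sperm genes up to that length, 3 of 33 (9.09%) had a pooled summit. These 33 include all 31 msp genes, 1 of them with a pooled summit, and the few short genes outside msp each had one. The 33 sperm genes other than msp stood nearer the share over all genes, with 13 (39.4%) in the pooled list and 12 (36.4%) in each replicate. In the IDR set they numbered 2 (6.06%), beside 10.3% of all genes. Their median length was 2407 bp.

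**Figure D2:**
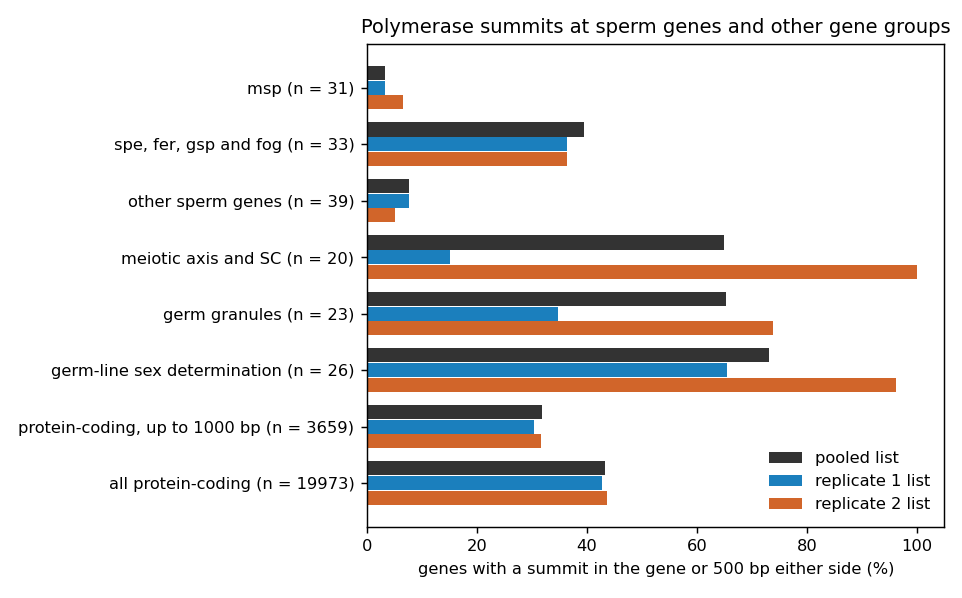
Percent of genes in each group with a summit in the gene or 500 bp either side, in the pooled list and in each replicate's list (1 bar per list, no error bars). The msp genes stand at 3.23% to 6.45%, the other 33 sperm genes at 36.4% to 39.4% and all protein-coding genes at 42.8% to 43.6%.

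Summits at gene starts, where polymerase loads, were fewer. A summit within 500 bp of the start was present at 5 of 64 in the pooled list (7.81%, against 30.7% of all genes), at 5 in replicate 1 (28.0% of all genes) and at 4 in replicate 2 (31.9%). None of the 31 msp starts had a summit in any of the 4 lists, and none of the 64 starts had an IDR summit, beside 5.57% of all genes. The starts with a pooled summit were those of spe-48, spe-47, spe-18, spe-29 and spe-39. The one at spe-47 lay 198 bp before the start, inside the 3′ UTR of ctn-1, a neighbour on the same strand. Only spe-48 had a summit at its start in both replicates.

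At the 29 msp genes with no summit in any list, the gap from gene to pooled summit ran from 767 bp at msp-33 to 32926 bp at msp-113, with a median of 11233 bp. In the replicates' lists the medians were 7599 and 7375 bp. Over all 19973 protein-coding genes, those with summits included, the median gap in the pooled list was 1882 bp. For the 17 other sperm genes with no summit in any list, the pooled gap had a median of 5543 bp and reached 12032 bp at fog-3. Both sets hold genes with no summit nearby by choice. Over all members the median was 11233 bp for the 31 msp genes and 2110 bp for the 33 others, the latter close to that of all genes.

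In 3 of the 4 places where msp genes lie together, genes around them had summits, though only 1 place exceeded the share over all genes. The msp genes fell into 4 clusters when neighbours more than 500000 bp apart were split. The first, on II from 4785898 to 5200180, held 10 msp genes and 39.6 pooled summits per 100 kb, above the 32.7 of the whole chromosome. Of its 112 other protein-coding genes, 53 (47.3%) had a pooled summit, beside 43.3% of all protein-coding genes. The cluster on IV from 9689015 to 10143740 had 9 msp genes, 27.9 summits per 100 kb beside 29.1 for the chromosome, and a summit at 47 of 124 other genes (37.9%). The other cluster on IV, from 5055631 to 5316906, was thinner, with 19.5 summits per 100 kb and 15 of 57 other genes (26.3%). The smallest, 13.3 kb on II with 3 msp genes, had no summit in the pooled list or either replicate's, at msp or at its 4 other genes. Of the other genes of up to 1000 bp, 12 of 31 had a pooled summit in the cluster with 10 msp genes. In the thinner cluster on IV 3 of 12 did, in the other on IV 6 of 30, and in the smallest 0 of 1. Over all protein-coding genes of that length the share was 31.9%.

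Repeated sequence was frequent at the msp genes. The share of 31-base words that occur once in the genome had a median of 16.1% in msp gene bodies and 68.2% with the flanks, against 100% and 99.5% over all protein-coding genes. The treatment of reads with several matches is unknown here. For msp-51, msp-113 and msp-79 no word of the gene was unique. Among all genes with under 50% unique words in the window, 53 of 559 (9.48%) had a pooled summit, against 44.3% of the other 19414. By this window, which includes the flanks, 4 msp genes fell in the first class, and of the other 27 1 had a pooled summit. Within the gene alone, 28 of 31 msp genes (90.3%) had under 50% unique words, beside 4.15% of all genes. Summits were not counted for a split by the gene alone. The part of repeated sequence in the low msp counts was not tested. Among the other 33 sperm genes the median was 97.8% with flanks, and the lowest was 50.9% at spe-43.

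**Figure D3:**
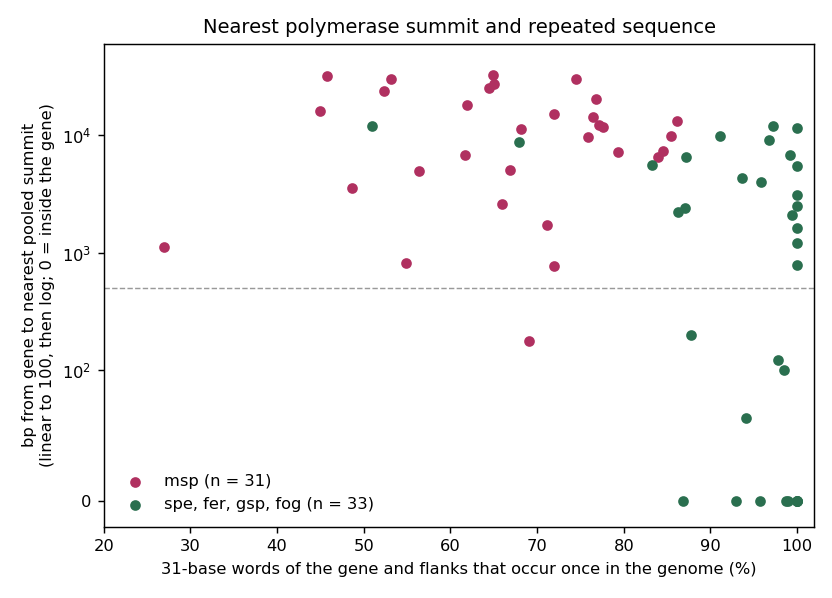
Distance from each of the 64 sperm genes to the nearest pooled summit (vertical, linear to 100 bp and then log) against the percent of 31-base words of the gene and its 500-bp flanks that occur once in the genome (horizontal); the dashed line marks 500 bp. Only msp-31 among the msp genes lies under the line, while 13 of the other 33 do.

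The strongest peak at any sperm gene lay on a neighbouring gene for spliced leader RNA, and also before the start of a protein-coding neighbour. It was at spe-46 (I: 9056293 to 9057824), which is needed for sperm to become fertile. The peak had rank 125 in the pooled list and in the IDR set, 161 in replicate 1 and 170 in replicate 2. Both replicates placed it high in their lists, at percentiles 99.5 and 99.4. Its summit was 121 bp beyond the end of spe-46 in the pooled list and fell in the exon of sls-2.7 (I: 9057890 to 9057999), a gene for SL2 RNA, the leader that messages of downstream operon genes receive by trans-splicing. In every list the summit of this peak also lay before the start of the protein-coding gene W06D4.3, within 500 bp of it. The nearest protein-coding gene body was spe-46 in the pooled list and replicate 1, and W06D4.3 in replicate 2. Which of these genes the peak belongs to was not tested. At the start of spe-46 itself replicate 1 had a weak summit, at rank 17636, and replicate 2 had none.

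The strongest site at an msp gene, found in replicate 2, also had a spliced leader RNA gene beside it. Its peak at IV: 5063224 to 5063553 had rank 305 of 30000 (percentile 99.0), with its summit 428 bp past the end of msp-57 and 33 bp from sls-2.13 (IV: 5063422 to 5063531). Replicate 1 had a peak of rank 21130 there, whose summit was 652 bp past msp-57 and so outside the window, and the nearest pooled summit was 17666 bp from sls-2.13. Of the 500 strongest peaks of replicate 2, 8 (1.6%) had no pooled summit within 1000 bp, and of those of replicate 1 none. A pair of other msp genes lay beside SL2 RNA genes: msp-19 at 941 bp from sls-2.12 and msp-65 at 354 bp from sls-2.17. Beside sls-2.12 there was a summit at rank 7792 in the pooled list, 11207 in replicate 1 and 6609 in replicate 2, between 44 and 68 bp away. From sls-2.17 the nearest was 23303 bp away in the pooled list, 20385 bp in replicate 1 and 17327 bp in replicate 2. In all, 4 of 64 sperm genes had a spliced leader RNA gene within 1000 bp, and 23 of all 19973 protein-coding genes did. The spliced leader neighbours were chosen for description with their values in view.

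The single msp gene with a pooled summit lies inside another gene. msp-31 (II: 4916179 to 4916562) sits within aagr-2, a gene on the same strand. Its peak ranked 3186 in the pooled list, 10437 in replicate 1 and 1715 in replicate 2, with summits 176, 198 and 176 bp past the msp-31 end. All 3 summits were in an intron of aagr-2, which held further summits close by. Replicate 2 ranked the site higher than replicate 1, with percentiles of 94.3 and 65.2. Of the msp genes with no summit in any list, the one with the shortest gap to a pooled or replicate 1 summit was msp-33 (II: 4892311 to 4892694), 767 bp from a pooled peak of rank 637 that was also in the IDR set. That summit lay 41 bp from gst-9, a glutathione S-transferase gene, and ranked 3272 in replicate 1 and 321 in replicate 2. In replicate 2 the gaps at msp-38, 536 bp, and msp-32, 593 bp, were shorter than the 768 bp at msp-33. These genes too were chosen with their values in view.

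Of the genes of fertilization described here, whose proteins sit on, are released by or are carried in sperm, 3 had a summit and 5 had none. Over all protein-coding genes 48.6% had none in any list, and so few genes give no contrast with that share. spe-51 (IV: 4692763 to 4696972), for a secreted protein with an immunoglobulin-like domain, was the other sperm gene in the IDR set. Its summit was in a coding exon 243 bp before the gene's end, at rank 1620 in the pooled list and 2334 in replicate 1. Replicate 2 had no summit at that base; its only one lay 214 bp away in the 3′ UTR, at rank 23043. The best percentiles differed by 69.0 points, with replicate 1 high. All these spe-51 summits also lay in the window of ogdh-1. Replicate 1 had a further one, at rank 22588, in a coding exon of ogdh-1. spe-36 (IV: 11588260 to 11592265), for a secreted protein with an EGF-like motif, had its best summit at rank 7313 pooled, 7358 in replicate 1 and 23076 in replicate 2. These summits lay within 10 bp of each other in a coding exon, up to 125 bp before the gene's end, and also in the window of F12F6.1. spe-42 (V: 11733540 to 11736996), a membrane protein of sperm, had ranks of 9667, 8876 and 18451 in that order, in its 3′ UTR, and 196 bp before the start of the nucleoporin gene npp-22 in the pooled list. At all 3 genes the best summit ranked higher in replicate 1. No list had a summit at spe-9, the EGF-repeat membrane protein, at spe-11, whose product sperm bring to the egg, at spe-38, spe-41, a calcium channel of the TRPC family, or spe-49.

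Of the genes of sperm activation described here, 4 had a summit and 5 had none, beside 48.6% of all protein-coding genes with none in any list. spe-12 (I: 8224539 to 8226297), a membrane protein of the spe-8 pathway through which spermatids become motile, had ranks of 2332 pooled, 6145 in replicate 1 and 1462 in replicate 2. The 3 summits lay within 3 bp of each other about 100 bp past its end, and 34 to 37 bp from T02E1.9, a snoRNA gene. spe-29 (IV: 9933880 to 9934322), in the same pathway, had a summit in a coding exon at rank 10625 pooled and 14069 in replicate 1, and none in replicate 2. spe-47 (I: 2617529 to 2620430), for a protein with an MSP domain, had summits of rank 23145 pooled, 17836 in replicate 1 and 27226 in replicate 2. The replicates' summits at spe-47 were not the same site, since the closest pair lay 3499 bp apart. The pooled summit and the best of replicate 1 lay in the 3′ UTR of ctn-1. That of replicate 2 lay in a coding exon of pid-3. No list had a summit at spe-8, a tyrosine kinase, spe-19, spe-27 or spe-43, nor at spe-4, the sperm presenilin. spe-6 (III: 11505488 to 11508930), of the casein kinase 1 family, had 4 summits in replicate 2, the best at rank 11642, a pooled one at rank 25950, and none in replicate 1. The best summit in replicate 2 lay 67 bp past the end of spe-6 and 84 bp before the start of Y66D12A.19.

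Of the genes for the building of the sperm cell described here, 4 had a summit and 4 had none. The share with none in any list was 48.6% over all protein-coding genes. spe-18 (II: 13151459 to 13153399), which helps pack major sperm protein into fibrous bodies, had a summit in the pooled list only, at rank 26102, 23 bp inside its start. spe-15 (I: 1446497 to 1465358), for a myosin, had a single summit, in replicate 2, at rank 10174, and it lay over a tRNA gene and a non-coding gene within an intron. spe-39 (V: 6785451 to 6787864), a vesicle traffic gene that acts in many tissues, had its best summit at rank 6071 pooled, 2950 in replicate 1 and 9070 in replicate 2. The first 2 of these lay in a coding exon of ZC404.2, and that of replicate 2 lay 196 bp before the spe-39 start, at the same base as a pooled summit of rank 6482. spe-48 (I: 1950594 to 1958527) had its best summits at the start, at ranks 6584, 14026 and 4466 in that order. The pooled and replicate 1 summits lay 31 and 35 bp inside the gene, in its 5′ UTR, and that of replicate 2 lay 29 bp before it, on the side of the divergent gene Y51F10.11. fer-1, for the ferlin that fuses sperm organelles with the cell surface, had no summit in any list, and the nearest pooled one was 5543 bp away. Nor did spe-10, a palmitoyltransferase, spe-26, of the kelch family, or spe-54 have one.

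The regulators fog-1 and fog-3 promote the sperm fate of germ cells, and 1 of them had a summit. They are too few to set against the 48.6% of all protein-coding genes with none in any list. fog-1 (I: 3211046 to 3217267) had its best summit at rank 8071 in the pooled list, 6966 in replicate 1 and 12346 in replicate 2, in a coding exon 304 to 375 bp before its end. These fog-1 summits also lay in the window of rom-5. fog-3 had none, with the nearest pooled summit 12032 bp away. spe-44 (IV: 12452063 to 12454215), a transcription factor of the sperm program, had none in the pooled list or replicate 1. Replicate 2 had weak ones, at rank 22466 in a coding exon and at rank 25865, 91 bp before the start. The sperm phosphatase gsp-3 had no summit in any list. Its close relative gsp-4 (I: 3838237 to 3839673) had a weak one in replicate 1 only, at rank 28306, inside a coding exon of T03F1.6. The gene left out by name, spe-5, stood at rank 500 in the pooled list and 227 in replicate 2, with no summit in replicate 1.

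Summits at sperm genes lay more often near ends than near starts, and most lay in a neighbour's window too. Of the 21 pooled summits in these windows, 16 (76.2%) were within 500 bp of the sperm gene's end and 5 (23.8%) within 500 bp of its start. The summit at spe-29 was near both, and that in an intron of spe-36 near neither. Over all 32831 pairs of a protein-coding gene and a pooled summit 28.1% were near the end and 25% near the start, so the pooled share near starts was close to that over all genes. Genes with many summits count once per summit in these pairs, and gene length was not matched. Of all the pairs 69.6% lay inside the gene, beside 52.4% at sperm genes. Among IDR peaks, of which sperm genes had 2, the all-gene share near the end was 45.2%. Near the end were 13 of 19 summits in replicate 1 (68.4%, beside 28.0% over all genes) and 12 of 24 in replicate 2 (beside 27.6%). Near the start were 6 of 19 in replicate 1 (31.6%, beside 22.9%) and 4 of 24 in replicate 2 (16.7%, beside 27.0%). Another protein-coding gene had the same summit in its window for 19 of the 21 pooled summits (90.5%, against 37.4% over all pairs), for 17 of 19 in replicate 1 (89.5%, against 35.2%) and for 13 of 24 in replicate 2 (54.2%, against 37.9%). With IDR peaks the share over all pairs was 65.5%. Both pooled summits that no other gene shared, in an intron of spe-36 and a coding exon of spe-39, were weak, at ranks 26886 and 14924. A summit between genes cannot be assigned to either from these lists.

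**Figure D4:**
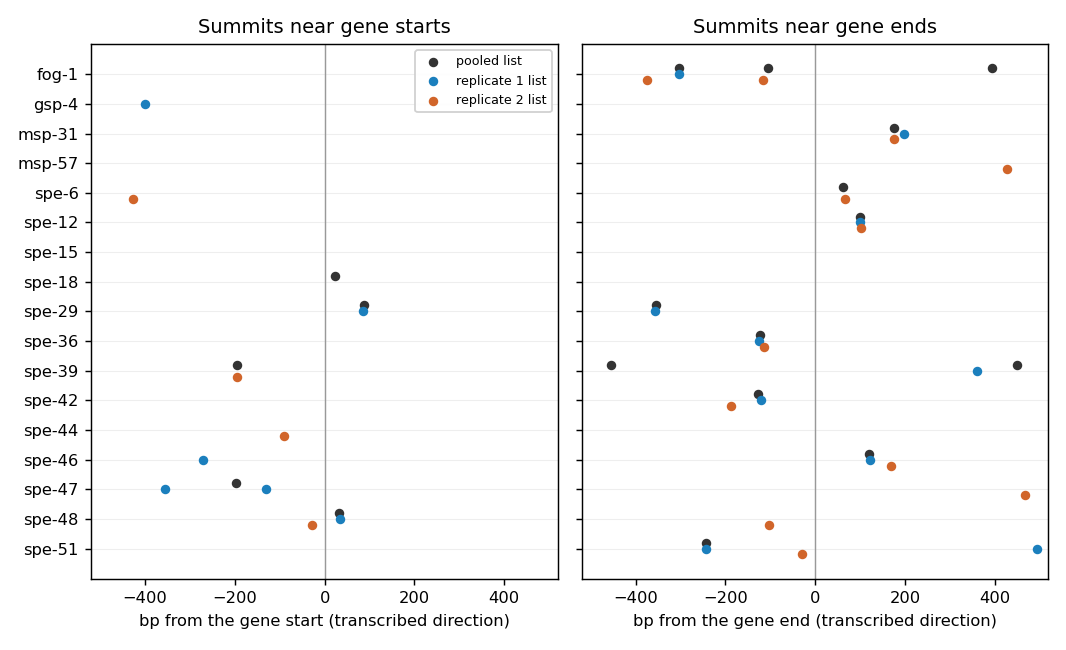
Summits within 500 bp of the start (left) and of the end (right) of 17 sperm genes with a summit in any of the 3 full lists, in bp in the transcribed direction, with 1 point per summit. The panel of ends holds more points of the pooled list, 13, than the panel of starts with 5.

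The replicates called nearly as many sperm genes but ranked them differently. Among the genes named here, replicate 1 alone had summits at gsp-4 and spe-29, and replicate 2 alone at spe-15, spe-6, msp-57 and spe-44. Of the 10 genes with a summit in both, 7 had summits within 100 bp of each other. Spearman's rho between the ranks in both replicates was 0.37 over these 10 genes, beside 0.53 over the 7009 protein-coding genes with summits in both, given as a description. Per the deposited notes both lists were made with the same control. Large differences in percentile, with 0 for no summit, were at msp-57 (0 in replicate 1 and 99.0 in replicate 2), spe-51 (92.2 and 23.2), spe-15 (0 and 66.1) and spe-6 (0 and 61.2). The 0 at msp-57 depends on the window, since a replicate 1 peak of percentile 29.6 had its summit 652 bp past the gene. Counted by peak intervals, msp-57 had a peak in both replicates.

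**Figure D5:**
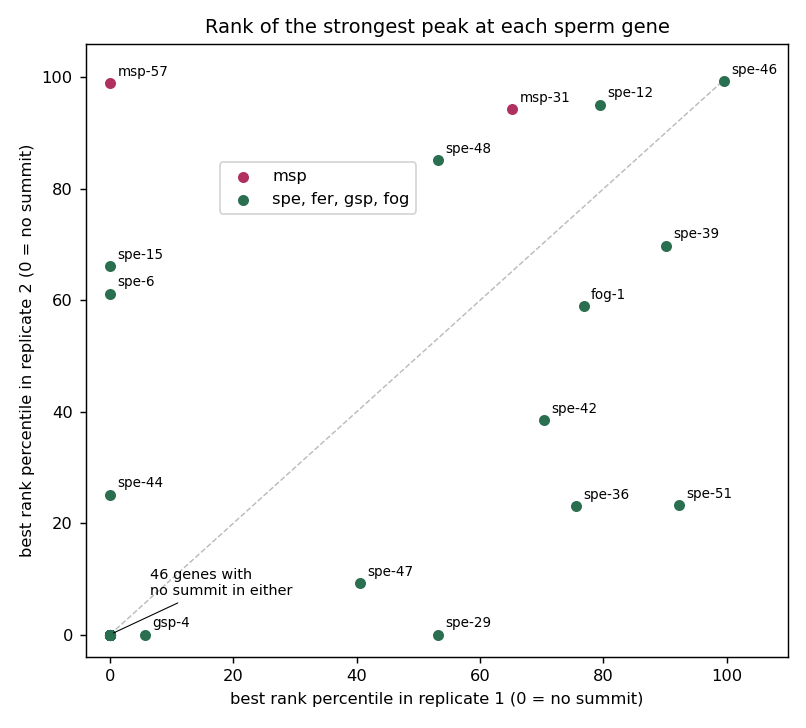
Best rank percentile of each of 62 sperm genes in replicate 1 (horizontal) and replicate 2 (vertical), with 0 where a gene had no summit and the dashed line marking equal percentiles. The point at the origin stands for 46 genes. At the top in both is spe-46, and msp-57 is high in replicate 2 only, its replicate 1 summit lying outside the window.

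Other sperm genes also had few summits. Another 39 genes known from sperm were counted, such as the ssp genes for small MSP-like proteins, the nspd family and the sperm chromatin proteins spch. Of these 3 (7.69%) had a pooled summit, 3 (7.69%) had one in replicate 1 and 2 (5.13%) in replicate 2, with none in both. Over all protein-coding genes the shares were 43.3%, 42.8%, 43.6% and 35.1% in that order. Among protein-coding genes of up to 1000 bp 31.9% had a pooled summit. The best pooled ranks were 2659 at ssp-34, 19883 at zipt-7.1, a zinc transporter of sperm activation, and 24523 at smz-2. ssp-34 had 4 summits in replicate 1 and none in replicate 2. None of 4 msd genes, which also encode MSP-domain proteins, had a summit in any list, beside 48.6% of all protein-coding genes with none. Median gene lengths were 521 bp for the 39 genes and 330 bp for the msd genes, and the latter also had few unique words (median 13.3% in the gene). The 39 genes had a median of 92.5% unique words in the gene, beside 100% over all protein-coding genes. The parts of gene length and repeated sequence in these counts were not tested.

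Germ-line genes of other roles had higher counts in replicate 2 than in replicate 1, and in the pooled list and replicate 2 their shares were above those of the sperm genes. Genes of the meiotic axis and synaptonemal complex, which hold paired chromosomes together, had a summit at 13 of 20 in the pooled list (65.0%, beside 43.3% of all genes), 3 of 20 in replicate 1 (15%, beside 42.8%) and 20 of 20 in replicate 2 (beside 43.6%). The best pooled ranks were 241 at syp-4, 1014 at syp-6 and 2308 at rec-8. Germ granule genes stood at 15, 8 and 17 of 23 in the same order (65.2%, 34.8% and 73.9%), led by ego-1 (265), csr-1 (1054) and mut-16 (1157). Genes of germ-line sex determination stood at 19, 17 and 25 of 26 (73.1%, 65.4% and 96.2%), led by mog-3 (734), nos-3 (945) and fem-1 (2178). Genes of the response to the MSP signal in the gonad, such as the Eph receptor vab-1, stood at 15, 12 and 16 of 16 (93.8%, 75.0% and 100%), led by oma-2 (1388), sos-1 (1498) and mpk-1 (1659). These groups have longer genes, with medians from 2720 bp for the meiotic list to 6687 bp for the MSP response, and many of their members act in other tissues too. In replicate 1 the share of the meiotic list was below the 20.3% of the 64 sperm genes, and that of the germ granule list was below the 36.4% of the 33 sperm genes other than msp. The part of germ-line content in these counts was not tested.

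Marker genes of several tissues were looked up to check the whole-animal label. Of 6 sperm markers 1 had a pooled summit (msp-31), 2 had one in replicate 1 and 1 in replicate 2, and none was in the IDR set. All of these markers belong to the sperm genes described above, so they add no new genes. Of 6 markers of oocytes and the meiotic germ line, 5 had a pooled summit, 2 had one in replicate 1 and 6 in replicate 2, and 1 was in the IDR set. Markers of body wall muscle had pooled summits at 3 of 3, and those of intestine, hypodermis and neurons at 2 of 3 each. In replicates 1 and 2 the counts of 3 were 3 and 2 for muscle and 1 and 1 for intestine. For hypodermis they were 3 and 1, and for neurons 2 and 2. The IDR set held 2 hypodermis markers and 1 of each other somatic tissue. The shares over all protein-coding genes were 43.3% pooled, 42.8% and 43.6% in replicates 1 and 2, and 10.3% in the IDR set.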

How the data were processed

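AMA-1 ChIP-seq peak lists of 2 biological replicates of whole L4 larvae were used. Per the deposited notes, a replicate's list came from its own alignments with a control, the same for both replicates, the pooled list from both alignments with that control, and the IDR set from the 3 lists. No source used here gives the aligner, peak caller, versions or IDR threshold. The deposited score per peak is the authors' signal value, used only for ranks inside its own list. The deposited −log10 q-value was at its maximum for all 2082 IDR peaks and was not used to rank. Lists on ce10 were not used. Read depth is unknown, so no counting error is given.

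Genes came from Ensembl release 115 (WBcel235, the assembly of ce11), and sequences and 31-base words (both strands) from RefSeq's WBcel235 genome. Coordinates are 1-based. Counts, gaps and motif matches were computed with Python 3.11.15, numpy 2.4.6, pandas 2.3.3 and scipy 1.17.1. Counting was checked with 200 planted summits. With 1 group no test was made: counts stand beside the same share over all nuclear protein-coding genes. The SD covers only the spread between the 2 samples. The members and gene lists were chosen with earlier results of these data known. Named were all genes with an IDR summit, the 20 best pooled ranks, the 5 largest replicate differences, all fer, gsp and fog genes, spe-44, spe-5, and up to 3 genes per other list; genes named beyond that were chosen after their values were seen, and some genes of the set are not reported here by name. Of names written in the lists, 9 matched no gene. Genes were counted by record: 38 names of other sperm genes gave 39 records, and 3 msd names gave 4. The planned protein identity was replaced by identity of coding bases.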

Additional observations from a re-analysis of the deposited data

How the results depend on the processing

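In the pooled list, the IDR set and the replicates, the share of sperm genes stayed below that of all protein-coding genes under the settings counted over both. With no flanks, 9 of the 64 genes had a pooled summit (34.6% of all genes did) and 1 an IDR summit (4.37%). The replicates then gave a mean of 7.5 (33.1% and 35.9% of all genes) and 5 in both. With summits near starts only, the counts were 5, 0, 4.5 and 1 in that order, beside 30.7% of all genes pooled and 5.57% in the IDR set. Counting only summits in no other gene's window gave 2, 0, 4.5 and 1, and a median best percentile of 30.3 in place of 74.4. With the main window the median over all protein-coding genes with a pooled summit was 81.2. Requiring the nearest gene body to be a sperm gene left 6 in both replicates. The stronger part of each list by rank gave 10 in the pooled list (35.2% of all genes), 1 in the IDR set (5.66%) and 6 in both. With lists as short as the IDR set, the replicates gave a mean of 2.5 and 1 gene in both. Shares over all genes are not given for unshared windows, nearest gene bodies or these short lists. Leaving out a replicate in turn gave counts from 13 to 14. Flanks of 250 and 1000 bp, peak intervals and genes with no overlap moved no count over the 64 genes by over 1.5 times. Among them the msp genes moved more: flanks of 1000 bp took those with a pooled summit from 1 to 3 (msp-31, msp-32 and msp-33) and those with an IDR summit from 0 to 1, and those in both replicates went from 1 to 3 with these flanks and to 2 with peak intervals. No paired analysis was possible because there was 1 group.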
